A study of Mus musculus with 6 samples.

Results

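The trypsinogens and their inhibitors comprised 8 mouse genes: the trypsinogen genes Prss1, Prss2, Prss3, Try4, Try5 and Try10, and the genes of 2 protease inhibitors of the exocrine pancreas, Spink1 (called Spink3 in older mouse naming) and Serpini2. They were chosen by name, as the digestive trypsinogens and pancreatic inhibitors, and matched through the RefSeq accession that the array design gives for each probe. Of the 8 genes, 7 had a probe, 1 each. No probe was matched to Try10, which was therefore not analysed here. In all, the arrays held probes for 23458 named genes. KCS samples (n = 3) were acinar cells isolated from C57BL/6 pancreata in which Ptf1aCre acted on a conditional oncogenic allele and on Setdb1flox/flox. KC samples (n = 3) came from C57BL/6 pancreata with the same Ptf1aCre and the same oncogenic allele but no floxed Setdb1. Both groups therefore carried the driver and the oncogenic allele, and neither was a wild-type pancreas. Setdb1 encodes a histone H3 lysine 9 methyltransferase, and Ptf1a drives Cre in pancreatic progenitors, so that recombination is not limited to acinar cells. The labels give no ages, and do not say whether the samples of a group were separate animals, so p-values measure the spread between these samples, which may be technical.

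Acinar cells make trypsin as an inactive zymogen, trypsinogen, and store it in zymogen granules together with the other digestive enzymes. Enteropeptidase in the duodenum removes a short activation peptide, and the resulting trypsin activates further trypsinogen and the chymotrypsin, elastase and carboxypeptidase zymogens. Inside the acinar cell the lysosomal protease cathepsin B can do the same, and Spink1, a Kazal-type inhibitor secreted with the zymogens, binds trypsin that becomes active too early. Activation within the pancreas is a known step in pancreatitis, and human SPINK1 and PRSS1 are pancreatitis genes. In the mouse the trypsinogen genes lie together on chromosome 6, next to and within the T cell receptor beta locus, and they are close copies of each other.

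Expression was read on 6 single-colour Agilent arrays, and each value is a log2 signal minus the 75th percentile of its array, so that 0 is the level of a probe at that percentile. The percentile itself was 347 to 423 scanner units on KCS arrays, against 61.2 to 68.6 on KC arrays. The share of summed signal in the 100 brightest probes was 13.4 to 14.6% on KCS arrays, against 34.4 to 37.4% on KC arrays. In the limma fit over 27104 genes and unnamed probes, 7019 were higher and 9330 lower in KCS at an adjusted p below 0.05. The higher share of the calls was 42.9%. It became 56.5% with each array centred on its median, 96.8% with scaling to the spike-in controls, 31.3% with normexp background correction and 22.3% without the filter on dim probes. The median log2 fold change of all rows was -0.19, and 2.69 with spike-in scaling. Setdb1, measured by 1 probe, had -0.28, -0.44 and -0.55 on KCS arrays, against -0.91, -1.05 and -0.32 on KC arrays, a difference of 0.33 ± 0.24 (SE, limma adjusted p = 0.27). Where this probe lies relative to the floxed exons is not given in the sources used here, so it does not check the labels.

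All 5 measured trypsinogens were lower in KCS than in KC, with log2 fold changes of -9.05 to -10.90, and every KCS array lay below every KC array for each of them. Prss2, which encodes anionic trypsinogen, had -5.85, 0.45 and 7.86 on KCS arrays, against 11.80, 11.62 and 11.74 on KC arrays. In scanner units the same Prss2 probe read 6.79, 578 and 80516 on KCS arrays, against 237804, 216424 and 209195 on KC arrays. The groups did not overlap, the KC arrays had an SD of 0.09, and KCS replicate 3 stood far above the other KCS arrays while remaining below KC.

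Prss3, a second trypsinogen gene of the cluster, had -5.01, 1.82 and 8.33 on KCS arrays, against 11.49, 11.34 and 11.44 on KC arrays. Try4 had -6.29, -0.42 and 7.86 on KCS arrays, against 10.76, 10.53 and 10.66 on KC arrays. Try5 had -6.40, 0.18 and 8.37 on KCS arrays, against 11.37, 11.25 and 11.40 on KC arrays. These genes shared the order of the KCS arrays seen for Prss2, with replicate 1 lowest and replicate 3 highest, and none overlapped between the groups. Prss1 had -6.48, -3.40 and 2.60 on KCS arrays, against 7.01, 6.13 and 6.74 on KC arrays, again without overlap. On KCS replicate 1 the probes of Prss1, Prss2, Try4 and Try5 were not well above background, and only that of Prss3 was. The signals there of the other 4 trypsinogens have no reliable order among themselves.

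**Figure D1:**
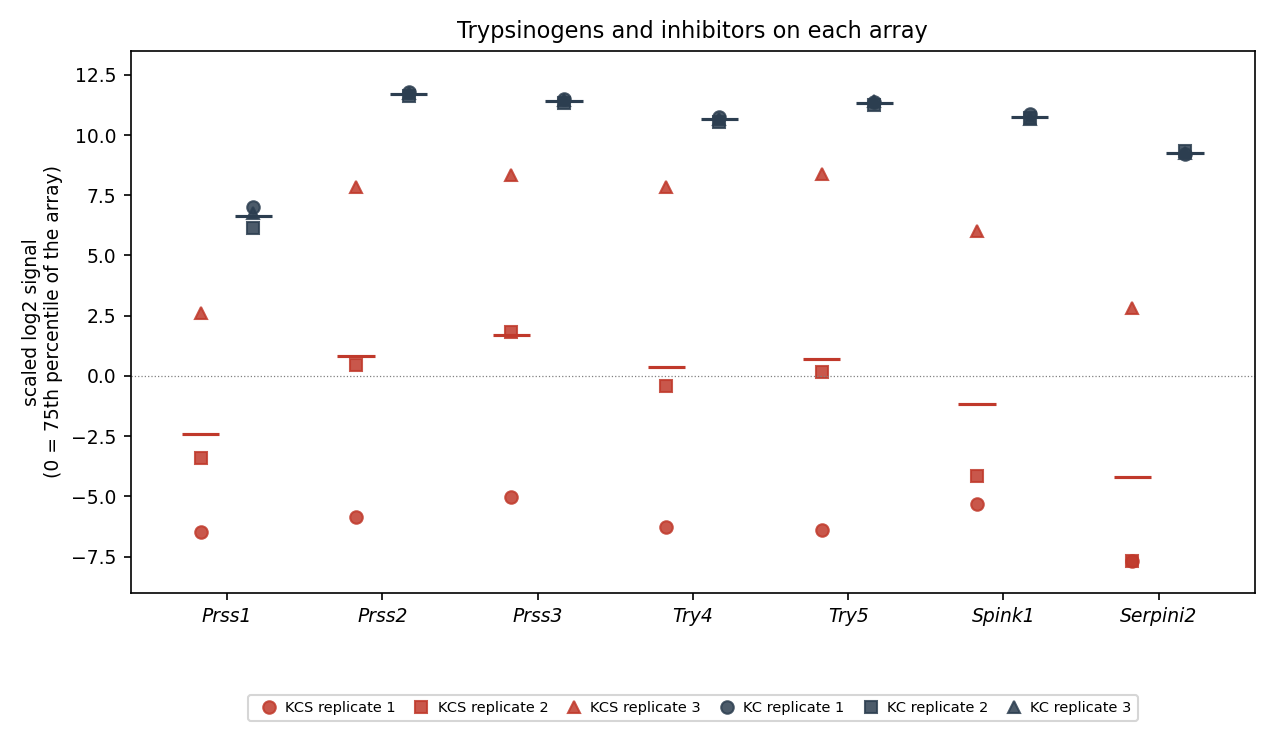
Scaled log2 signal (vertical axis, 0 is the 75th percentile of the array) of the 7 measured members, with 1 point per array, KCS in red left of KC in dark blue, marker shapes for the replicate numbers and a bar at each group's mean. KC points lie together, between 6.13 for Prss1 and 11.80 for Prss2, while KCS points are spread widely for each gene and all lie below KC.

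The fitted log2 fold change was -10.90 ± 3.12 for Prss2 (SE, n = 3 each, limma adjusted p = 0.0222) and -9.05 ± 2.11 for Prss1 (adjusted p = 0.0101). It was -9.71 ± 3.04 for Prss3 (limma adjusted p = 0.0305), -10.27 ± 3.23 for Try4 (adjusted p = 0.0314) and -10.62 ± 3.37 for Try5 (adjusted p = 0.0321). The 2 inhibitors fell as well, so that 7 of 7 measured members were called lower, where 34.4% of all rows tested were called lower and 60.3% were called in either direction. In 7 of 7 every KCS array lay below every KC array, where this held for 38.4% of all rows and 68.2% of rows did not overlap in either direction. The median log2 fold change of the 7 was -10.62, against -0.19 over all rows, so that the members' median minus that of all rows was -10.43. This difference was -8.56 with quantile normalization, -7.95 with normexp, -6.83 on the second slide alone, -6.89 without KCS replicate 1 and -14.23 without KCS replicate 3. Spike-in scaling moved the median of the 7 to -7.74, against 2.69 over all rows. Every member passed the filter on dim probes, and none of the 7 had only dim KCS arrays.

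Several of these calls were lost when 1 array was left out. Of the 5 trypsinogens only Prss1 kept its call when any 1 array was left out. Without KCS replicate 2, or without any 1 of the KC arrays, Prss2, Prss3, Try4 and Try5 had limma adjusted p-values of 0.0535 to 0.0846. Then 3 members were called lower (28.4%, 33.0%, 31.9% and 30.4% of all rows with KCS replicate 2 or KC replicate 1, 2 or 3 left out). In these fits the log2 fold change of Prss2 was -10.72 to -10.95, against -10.90 with all arrays. Its SE was 3.77 to 3.89, against 3.12 with all arrays. Leaving out KCS replicate 1 brought the median of the 7 members to -7.06, and leaving out KCS replicate 3 to -14.42, with 7 called lower in either case (31.2% and 31.7% of all rows). Replicate 1 of both genotypes was hybridised on 1 slide and the other replicates on a second slide. On the first slide the members differed by -13.48 (Prss1) to -17.77 (Try5), and on the second by -6.32 (Prss3) to -11.73 (Serpini2). On the second slide alone Prss1 (limma adjusted p = 0.0420) and Serpini2 (0.0437) stayed called, while Prss2, Prss3, Try4, Try5 and Spink1 had adjusted p-values of 0.0562 to 0.0933. On that slide 30.8% of all rows were called lower. Quantile normalization (29.3% of all rows lower) and trend and robust eBayes (34.6%) each called 3 members, Prss1, Spink1 and Serpini2. With probes well above background on all 6 arrays (42.7%) only Prss3 was measured, and was called lower. All 7 were called lower with spike-in scaling, where 2.9% of all rows were, as with median centring (26.0%), normexp (55.0%), no filter (53.5%), averaged probes (34.1%), the slide as a block (36.7%) and dim signals raised to the background limit (43.7%).

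Spink1, the trypsin inhibitor of the zymogen granule, had -5.32, -4.14 and 6.00 on KCS arrays, against 10.87, 10.70 and 10.66 on KC arrays. Its signal was 9.80, 23.9 and 22224 scanner units on KCS arrays, against 124316, 114465 and 99236 on KC arrays. The groups did not overlap, and KCS replicates 1 and 2 lay close together at the bottom, unlike for the trypsinogens, whose replicate 2 lay between the others. The Spink1 probe was not well above background on KCS replicate 1, so how close these 2 arrays lay is not known exactly. The log2 fold change of Spink1 was -11.90 ± 2.83 (SE, n = 3 each, limma adjusted p = 0.0109), and it stayed called with any 1 array left out. Serpini2, a serpin made in the exocrine pancreas whose loss in mice is known to go with loss of acinar cells, had -7.70, -7.70 and 2.84 on KCS arrays, against 9.22, 9.33 and 9.26 on KC arrays. KCS replicates 1 and 2 read 1.89 and 2.03 scanner units, below the dimmest probe called well above background there (9.21 and 9.96 units). Serpini2 on these 2 arrays is therefore known only to lie below that limit. The log2 fold change of Serpini2, -13.46 ± 2.77 (SE, limma adjusted p = 0.00611), had the lowest adjusted p-value of the 7 members. With dim signals raised to the background limit of each array it was -11.93, still called.

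Because the inhibitor and its targets were read on the same arrays, their balance was compared within each array as the Spink1 value minus the mean of the 5 trypsinogens. Subtracting 1 constant per array, as the percentile, median and spike-in scalings do, leaves this value as it is. This value was 0.68, -3.87 and -1.001 on KCS arrays, against 0.38, 0.53 and 0.27 on KC arrays. KC arrays thus kept Spink1 and the trypsinogens in nearly 1 ratio, whereas KCS replicate 2 lay 4.26 and replicate 3 1.39 log2 units below the KC mean, and replicate 1 lay 0.29 above it. The KCS mean of -1.40 ± 2.30 and the KC mean of 0.39 ± 0.13 (SD, n = 3 each) differed by -1.79, with a two-sided exact permutation p of 0.4, where 0.1 is the smallest p that 3 arrays against 3 allow. Without KCS replicate 2 the difference was -0.55 (exact p = 0.6). On the second slide alone the difference was -2.83, with an exact p of 0.333, the smallest that the arrays of that slide allow. Without KCS replicate 1, where Spink1 and 4 trypsinogens were not well above background, it was -2.83 (exact p = 0.1), and it was -1.51 with normexp and -2.01 with dim signals raised (exact p = 0.1 each). With these numbers of arrays the test cannot reach the threshold of 0.05, so it cannot settle whether the ratio of inhibitor to zymogen transcripts changed.

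The same value for Serpini2, computed after its levels had been seen and given as a description, was -1.69, -7.43 and -4.16 on KCS arrays, against -1.27, -0.85 and -1.13 on KC arrays. Every KCS array lay below every KC array, replicate 1 by the least. The Serpini2 signal was not well above background on KCS replicates 1 and 2, so their values are not exact. On replicate 1 most trypsinogens were not either, so its place against KC is not reliable.

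**Figure D2:**
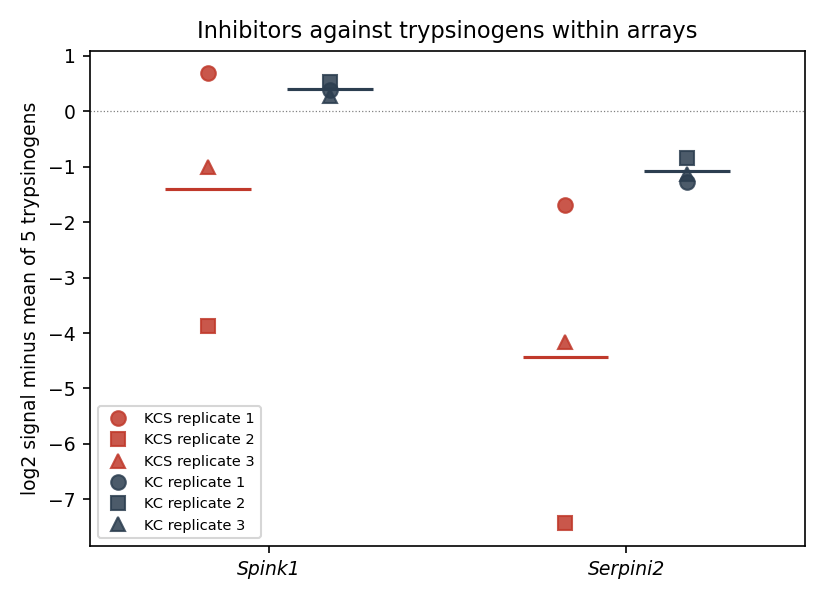
Log2 signal of Spink1 and of Serpini2 minus the mean of the 5 trypsinogens on the same array (vertical axis), 1 point per array, KCS in red left of KC in dark blue, with a bar at each group's mean. For Spink1 the KCS points run from -3.87 to 0.68 on both sides of the KC points, and for Serpini2 they run from -7.43 to -1.69, all below KC.

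KCS arrays differed from each other in the same order over most of these genes. Relative to the KC mean, KCS replicate 1 lay at -13.10 to -17.74 log2 units across the 7 members, replicate 2 at -9.60 to -16.97 and replicate 3 at -2.79 to -6.43. Among the trypsinogens replicate 2 fell between the others for each gene, and for Spink1 and Serpini2 it was near replicate 1. Spink1 was not well above background on replicate 1, and Serpini2 on neither of replicates 1 and 2. How near these 2 arrays lay for the inhibitors is therefore not known exactly. The acinar markers other than the members moved with them: 9 of 9 were called lower, and 5 of 9 on the second slide alone. Over all rows these shares were 34.4% and 30.8%. The median log2 fold change of the 9 markers was -9.62. Their medians were -5.76, -3.81 and 5.38 on KCS arrays, against 11.21, 11.03 and 11.11 on KC arrays. Their summed scaled values were -43.27, -22.64 and 37.80 on KCS arrays, against 84.71 to 87.75 on KC arrays. In replicate order 4, 7 and 9 of the 9 were well above background on the KCS arrays, against 9 on each KC array. The acinar label thus held for the defining markers on KC arrays, while on KCS replicate 1, labelled acinar too, Pnlip, Amy2b, Cela3b, Ptf1a and Rbpjl were not well above background. In RNA from many cells, fewer acinar cells and less of these transcripts per acinar cell cannot be told apart.

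**Figure D3:**
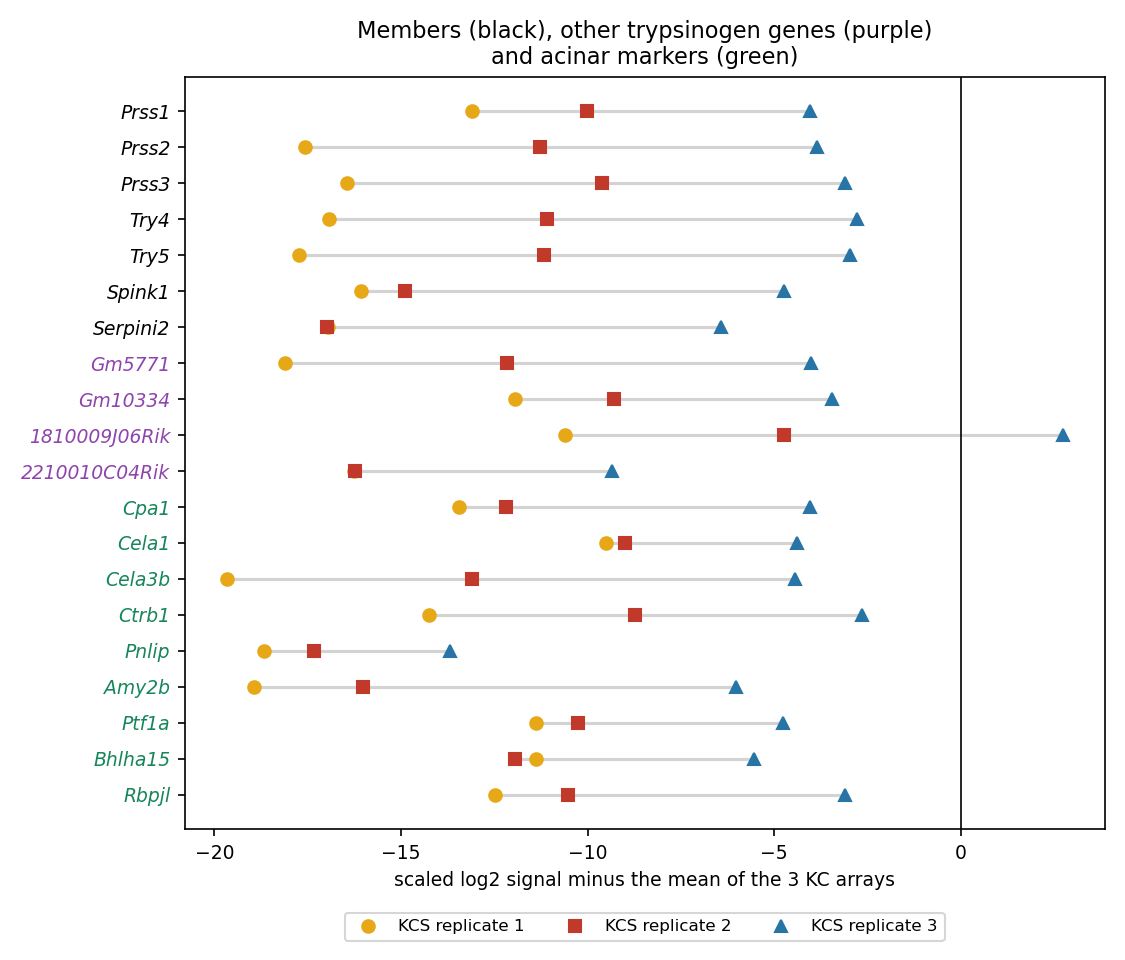
Scaled log2 signal of each KCS array minus the mean of the 3 KC arrays (horizontal axis, 0 is the KC mean) for the members (black names), 4 other trypsinogen genes (purple) and 9 acinar markers (green), with 1 point per KCS replicate. All points but 1 lie left of 0, replicate 3 lies furthest right in every row, and the exception is replicate 3 of 1810009J06Rik, at 2.74.

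Markers of other cell types moved the other way. All 5 macrophage markers (Aif1, Adgre1, Csf1r, Cd68 and Cd14) were called higher, with summed values of 23.65 to 25.54 on KCS arrays, against 2.57 to 6.04 on KC arrays. A second Csf1r probe, also well above background on all 6 arrays, did not rise. It differed by -0.23, against 3.01 for the probe used. All 5 fibroblast markers were called higher, with sums of 31.53 to 33.88 on KCS arrays, against 19.08 to 20.87 on KC arrays. Of these, Dcn had overlapping groups (limma adjusted p = 0.0485). Its call was lost with the slide (limma adjusted p = 0.0592) or the replicate number (0.0931) as a block and on the second slide alone (0.221). It was also lost without KCS replicate 1, KCS replicate 3, KC replicate 1 or KC replicate 3 (0.108 to 0.137). Each of these leaves 4 of 5. Endothelial markers were called higher in 4 of 5 (sums of 8.95 to 12.86 on KCS arrays, against 5.08 to 5.80 on KC arrays). Ductal markers were called higher in 2 of 5 (sums of 8.40 to 16.49 on KCS arrays, against 1.78 to 4.45 on KC arrays): Krt19 and Krt7. Of the 4 T cell markers measured, Cd2 was higher and Cd3e, Cd3d and Cd4 were lower (sums of -2.12 to 3.58 on KCS arrays, against 1.33 to 5.33 on KC arrays). A second, dimmer Cd3d probe went the other way, with a difference of 3.54, against -1.91 for the probe used. With spike-in scaling 2 were higher and 0 lower, and 2 of the 4 were called without KCS replicate 2, KCS replicate 3 or KC replicate 1. All 5 ductal markers were called higher with spike-in scaling, as were 23630 of all 27104 rows. Every macrophage, fibroblast, endothelial and ductal marker was well above background on all 6 arrays, and 25.9% of all rows were called higher. The part of these cell types in the fall of the members was not tested.

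The other trypsinogen genes of the cluster went the same way, with 1 exception. Of 10 listed, 4 are not in the RefSeq table, and Gm5409 and Gm2663 had no matched probe. The other 4 were measured, and 3 of them were called lower, against 34.4% of all rows. Gm5771 had -6.69, -0.74 and 7.42 on KCS arrays, against 11.58, 11.28 and 11.40 on KC arrays. Its log2 fold change of -11.42 ± 3.22 (SE, limma adjusted p = 0.0210) lost its call on the second slide alone (adjusted p = 0.0616), with trend and robust eBayes (0.0645), and without KCS replicate 2 or any 1 of the KC arrays (0.0517 to 0.0616). 2210010C04Rik had -7.69, -7.67 and -0.78 on KCS arrays, against 8.64, 8.60 and 8.45 on KC arrays (-13.94 ± 1.82, limma adjusted p = 0.000966). Its probe was not well above background on KCS replicates 1 and 2, so those levels are known only to lie below the background limit. The fold change was -12.43 with dim signals raised. Gm10334 fell by 8.23 ± 1.98 (adjusted p = 0.0114). None of these 3 overlapped between the groups, and KCS replicate 3 was again the highest KCS array. The exception, 1810009J06Rik, was named after its values were seen: it had -7.54, -1.69 and 5.80 on KCS arrays, against 3.42, 3.11 and 2.63 on KC arrays. Here KCS replicate 3 stood above all KC arrays and the other KCS arrays below them. The fitted change of -4.20 ± 3.05 did not pass the test (limma adjusted p = 0.27), although it did without KCS replicate 3 (-7.67, adjusted p = 0.00988). The genes are close copies and the probe letters were not used here, so how far a probe also reads a neighbour's transcript was not tested.

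Likeness to other genes over the 6 arrays was described as the root mean square difference on the log2 scale, after each gene was centred on its KC mean. The distances take in KCS replicate 1, where many of these signals are not well above background, so close ranks have no reliable order. Among all named rows tested outside the set, the 5 nearest to the trypsinogen mean included Cela2a (0.31), which encodes an elastase, and Amy2a5 (0.57), a pancreatic amylase. The others were Sycn (0.78), which encodes the granule protein syncollin, Cel (0.78), the bile salt-dependent lipase, and Amy1 (0.79). Near to Spink1 were Rnase1 (0.44), the pancreatic ribonuclease, Pdia2 (0.54), a protein disulfide isomerase of the pancreas, Cuzd1 (0.70), a zymogen granule membrane protein, and Klk1b4 (0.82), of the kallikrein family. Cela2a had -4.05, 0.74 and 8.92 on KCS arrays, against 12.22, 11.92 and 12.09 on KC arrays, with replicate 2 midway as in the trypsinogens. Rnase1 had -5.52, -4.39 and 4.52 on KCS arrays, against 10.12, 9.87 and 9.85 on KC arrays, with replicate 2 near replicate 1 as in Spink1.

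The bases before the annotated starts of 5 members are shown as a description. PTF1, the acinar transcription factor complex of Ptf1a, an E protein and Rbpjl, is known to bind an E-box paired with a TC-box. Ptf1a (-8.80 ± 1.66, limma adjusted p = 0.00423) and Rbpjl (-8.71 ± 2.26, adjusted p = 0.0153) were both lower in KCS. Whether PTF1 has a part in the fall of the members was not tested. The Ptf1a probe was well above background on only 1 KCS array, so the size of its fall is not exact. The call for Rbpjl was lost without KCS replicate 2 (limma adjusted p = 0.0529), on the second slide alone (0.0715) and with trend and robust eBayes (0.0503). RefSeq windows (GRCm38.p6) ran from 250 bases before to 50 after the start. Those of 5 members and 4 other trypsinogen genes were searched. No window was at hand for Try5 or Try10, and Spink1 was left out of the search. Both strands were searched for the E-box letters CACCTG, the TC-box letters TTTCCC and the TATA box letters TATAAA. No matches of different motifs overlapped in the windows printed. The 250 bases before the start are printed 5′ to 3′ on the gene's strand, with matches on either strand in capitals: Prss1 at chr6:41458680-41458929 (plus strand), Prss2 at chr6:41521526-41521775 (plus), Prss3 at chr6:41377614-41377863 (minus), Try4 at chr6:41302022-41302271 (plus) and Serpini2 at chr3:75270079-75270328 (minus).
Prss1: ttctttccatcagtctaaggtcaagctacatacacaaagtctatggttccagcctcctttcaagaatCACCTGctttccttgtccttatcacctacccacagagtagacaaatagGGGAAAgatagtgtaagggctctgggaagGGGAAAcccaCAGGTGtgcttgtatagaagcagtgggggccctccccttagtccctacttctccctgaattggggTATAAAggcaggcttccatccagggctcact
Prss2: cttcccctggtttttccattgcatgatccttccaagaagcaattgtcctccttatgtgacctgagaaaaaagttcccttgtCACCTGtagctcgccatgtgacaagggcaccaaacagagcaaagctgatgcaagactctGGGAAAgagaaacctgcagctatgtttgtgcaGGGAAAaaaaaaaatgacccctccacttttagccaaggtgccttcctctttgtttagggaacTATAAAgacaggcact
Prss3: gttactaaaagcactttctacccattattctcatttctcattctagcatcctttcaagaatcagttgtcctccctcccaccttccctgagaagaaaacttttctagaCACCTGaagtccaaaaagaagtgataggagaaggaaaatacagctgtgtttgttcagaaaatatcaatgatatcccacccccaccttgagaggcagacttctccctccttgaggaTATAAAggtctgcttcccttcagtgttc
Try4: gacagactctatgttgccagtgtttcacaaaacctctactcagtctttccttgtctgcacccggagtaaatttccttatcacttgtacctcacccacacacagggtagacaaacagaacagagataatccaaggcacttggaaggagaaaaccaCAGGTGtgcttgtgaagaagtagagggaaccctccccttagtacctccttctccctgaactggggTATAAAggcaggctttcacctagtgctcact
Serpini2: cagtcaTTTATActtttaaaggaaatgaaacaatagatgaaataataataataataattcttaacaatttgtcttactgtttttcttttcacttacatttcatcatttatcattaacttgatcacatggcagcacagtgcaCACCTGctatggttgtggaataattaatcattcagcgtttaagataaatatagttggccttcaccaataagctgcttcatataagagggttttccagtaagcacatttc

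CACCTG was present in 5 of 5 member windows searched, which leave out Spink1, and in 4 of 4 windows of the other trypsinogen genes. It was present in 20.2% of 32817 promoter windows of the same length. TATAAA was present in 5 of 5 and 4 of 4, and in 13.6% of all windows. Counted in bases from the start, it began at -31 in Prss1 and Try4, at -28 in Prss3 and at -16 in Prss2, while Serpini2 had it only on the opposite strand, at -244. TTTCCC was present in Prss1 and Prss2, and in Gm5771 and Gm2663, against 25.2% of all windows. An E-box and a TC-box within 30 bases of each other occurred in Prss1 and in Gm5771, against 1.03% of all windows. In Prss1 the E-box matches lay at -183 and -96 and the TC-box matches at -135 and -106. The windows are not independent of each other: Prss3 and Gm10334 shared 86.4% of aligned bases, Prss1 and Gm5771 85.6%, and Prss1 and Try4 74.2%, against 48.3 to 50.6% between Serpini2 and the member trypsinogens. These are matches of letters, not measured binding.

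**Figure D4:**
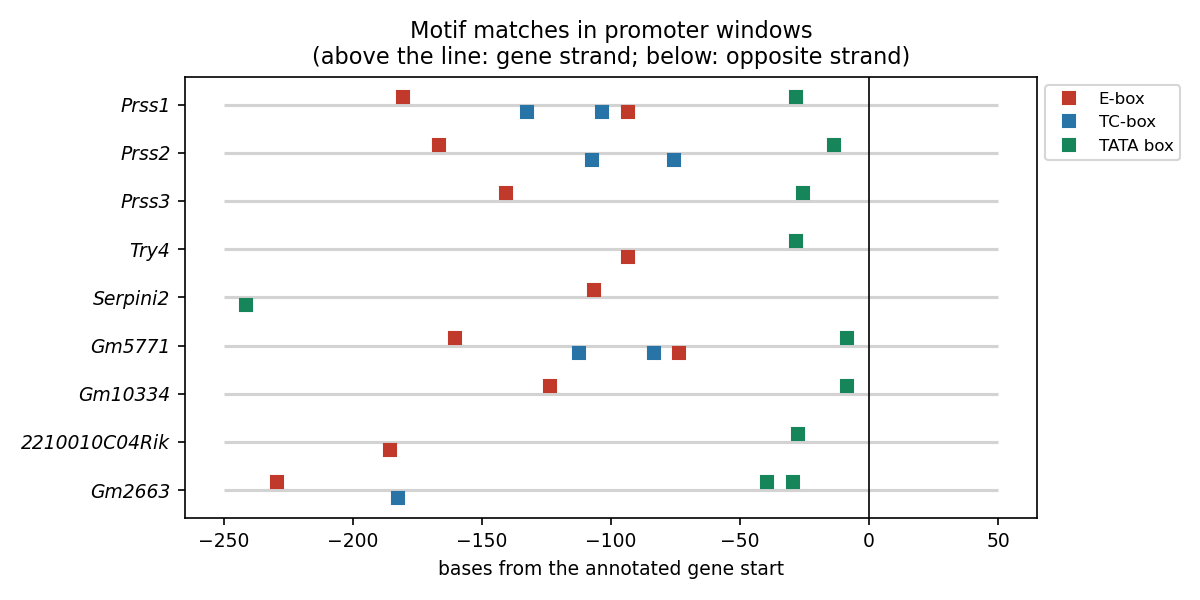
Positions of the E-box, TC-box and TATA box matches (squares, by colour) in the promoter windows of 5 members and 4 other trypsinogen genes, in bases from the annotated start (horizontal axis), with matches on the gene's strand above each line and on the opposite strand below it. Each of the 9 windows holds at least 1 E-box match, and a TATA box match lies close to the start in all but Serpini2.

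The proteases that cut trypsinogen or trypsin divided by type. Of 7 listed, 5 were tested, 2 were higher and 2 lower, with a median log2 fold change of -0.002. Over all rows 25.9% were called higher and 34.4% lower. Ctsb, which encodes cathepsin B, had 7.98, 7.29 and 7.52 on KCS arrays, against 5.94, 5.94 and 5.41 on KC arrays, a rise of 1.83 ± 0.26 (SE, limma adjusted p = 0.00134) with no overlap. Ctsd, the gene of cathepsin D, which can activate cathepsin B, rose by 0.99 ± 0.19 (limma adjusted p = 0.00463), also without overlap. Both stayed higher under every scaling tried. Ctsl, the gene of cathepsin L, which inactivates trypsinogen, had 6.97, 6.80 and 7.12 on KCS arrays, against 6.88, 7.29 and 6.73 on KC arrays, and differed by -0.002 ± 0.21 (limma adjusted p = 0.994). Its sign turned with quantile normalization (1.11), median centring (0.35), normexp (0.73) and spike-in scaling (2.88). It was called higher with quantile normalization (limma adjusted p = 0.00336), normexp (0.00772) and spike-in scaling (1.76e-05), so that 3 of the 5 were higher there. With spike-in scaling 23630 of 27104 rows were called higher. A second probe of Ctsl differed by -0.69. The chymotrypsinogen genes fell with the trypsinogens: Ctrl had -3.73, -3.80 and 1.42 on KCS arrays, against 11.69, 11.27 and 11.37 on KC arrays (-13.48 ± 1.37, limma adjusted p = 0.000401). Ctrb1, which is also among the acinar markers, fell by 8.54 ± 2.64 (limma adjusted p = 0.0292), a call lost without KCS replicate 2 or any 1 of the KC arrays (0.0668 to 0.0758), on the second slide alone (0.0715), with trend and robust eBayes (0.0812) and with quantile normalization (0.109). Tmprss15, the gene of enteropeptidase, was not well above background on any array, and Ctrc had no matched probe.

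Protease-activated receptors are switched on by trypsin or thrombin, which cut their extracellular end. These genes were called higher in 4 of 4, against 25.9% of all rows, with a median log2 fold change of 3.62. F2r, the gene of the thrombin receptor PAR1, had 4.32, 4.95 and 4.12 on KCS arrays, against -0.24, 0.13 and -0.31 on KC arrays (4.60 ± 0.27, limma adjusted p = 9.79e-05), with no overlap. No KC array had F2rl1, F2rl2 or F2rl3 well above background; F2rl1 encodes PAR2, the trypsin receptor. Against the dimmest signal well above background there, these 3 were higher in KCS by at least 2.84-, 4.83- and 1.21-fold in that order (limma adjusted p of 0.00225, 0.000114 and 0.00165). With normexp background correction F2rl1 differed by -0.15 and F2rl3 fell by 0.85 (limma adjusted p = 0.000663), so their direction depends on the background correction. F2r (4.21) and F2rl2 (0.56) were still called higher, F2rl2 by less than the bound above. With dim signals raised to the background limit F2rl3 was 0.28 higher and not called (limma adjusted p = 0.374).

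Other inhibitors of serine proteases went both ways. Of 31 listed, 23 were measured, 9 were higher and 7 lower, against 25.9% and 34.4% of all rows. Their median log2 fold change was 0.67. Serpine2, the gene of protease nexin, had 8.20, 7.84 and 6.57 on KCS arrays, against 3.11, 3.06 and 2.91 on KC arrays. It rose by 4.51 ± 0.42 (limma adjusted p = 0.000304), and Serping1, the gene of C1 inhibitor, by 3.17 ± 0.28 (adjusted p = 0.000264). A2m, the gene of alpha-2-macroglobulin, which also traps trypsin, was well above background on 0 KC arrays, and its KCS level was higher by at least 8.36-fold (limma adjusted p = 0.000257). None of these 3 overlapped between the groups, and each stayed called higher with quantile, median, spike-in and normexp processing. With normexp, however, A2m was 1.03 higher on the log2 scale (limma adjusted p = 0.0282), less than the stated bound. With spike-in scaling 17 of the 23 were higher and 0 lower, where 23630 of 27104 rows were called higher. With dim signals raised to the background limit the median of these inhibitors was -0.26.

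Of 23 other trypsin-like serine proteases, 19 were measured, 6 were higher and 7 lower, against 25.9% and 34.4% of all rows. Their median was -0.10. With spike-in scaling 13 were higher and 0 lower, where 23630 of 27104 rows were called higher. Plat, the gene of tissue plasminogen activator, had 3.37, 3.54 and 3.11 on KCS arrays, against -0.90, -0.61 and -1.71 on KC arrays (4.42 ± 0.32, limma adjusted p = 0.00015). Prss12, the gene of neurotrypsin, rose by 4.23 ± 0.47 (limma adjusted p = 0.000533), and Prss22, which no KC array had well above background, was higher by at least 17.2-fold (adjusted p = 7.1e-05). With normexp these were 2.68 and 2.10 higher on the log2 scale, the second less than its bound. Prss36 fell by 2.28 ± 0.25 (limma adjusted p = 0.000508), but was 0.60 higher with spike-in scaling.

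**Figure D5:**
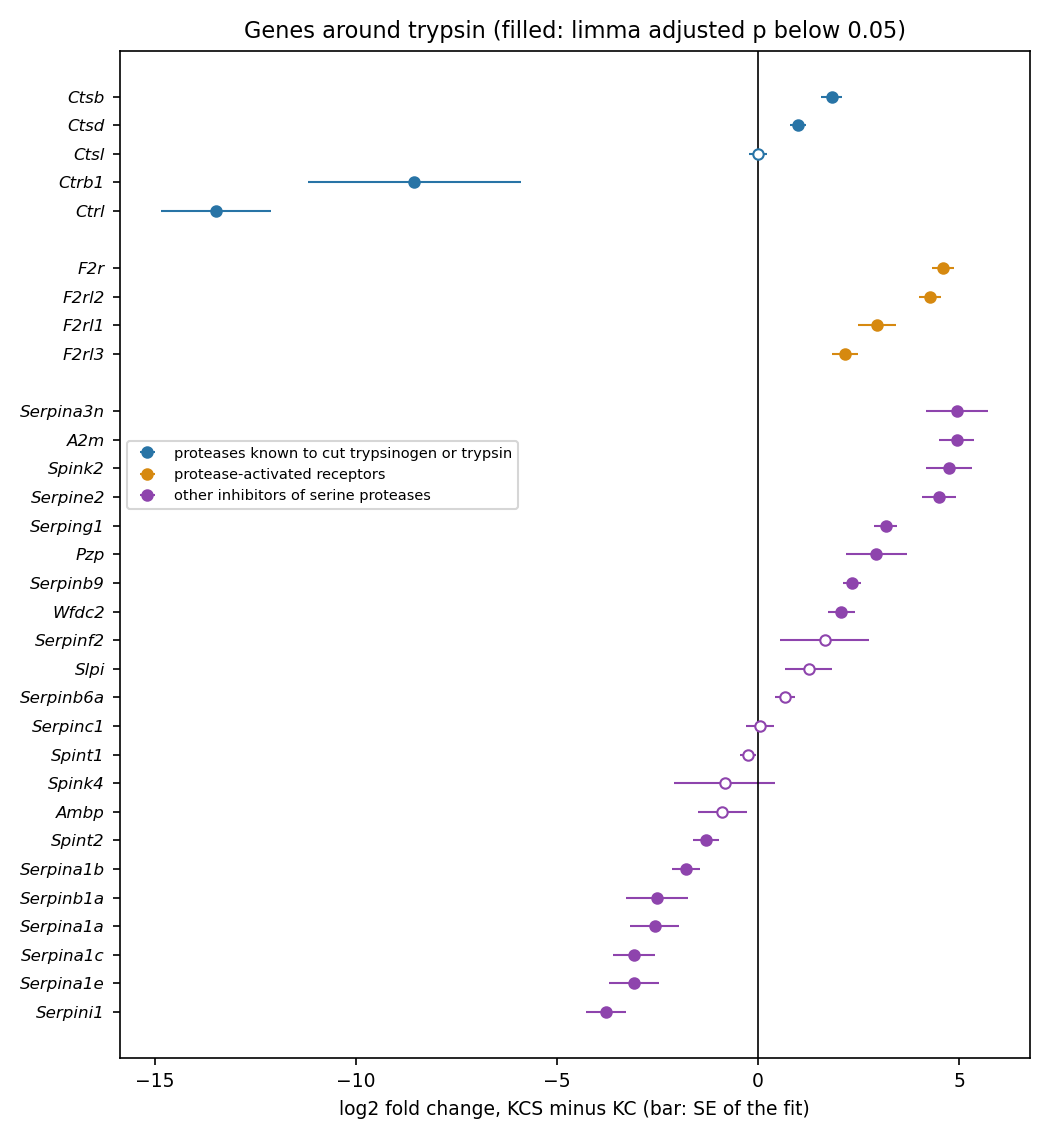
Log2 fold change, KCS minus KC (horizontal axis, bars are the SE of the fit), of measured genes of 3 lists, with filled points for a limma adjusted p below 0.05. Ctrl and Ctrb1 lie at -13.48 and -8.54, the 4 receptors lie right of 0, and the other inhibitors shown run from -3.78 to 4.95.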

How the data were processed

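Total RNA of 6 samples was amplified, labelled with Cy3 and hybridised to 6 Agilent arrays, per the labels. The authors deposited scanner output, with 1 processed signal intensity per spot, background-subtracted per the file headers and extracted with Agilent Feature Extraction 12.0.3.1, per the submitters' processing notes; the array design names build mm9, per the file headers. The authors also deposited a value table of log2 signals, which, set against the scanner files, proved to be scaled to the 75th percentile and then centred per probe over the arrays, with column medians of -0.05, -0.03 and -0.04 for KCS and -0.01, 0.05 and 0.10 for KC. From the scanner files, 62976 spots per array were read, 3671 control spots and spots marked as outliers (88 to 140 per array) were left out, no spot was saturated, spots of a probe were averaged and each array's 75th percentile over 56605 probes was subtracted on the log2 scale. Each KCS array had 35367 to 35921 probes well above background and each KC array 26551 to 27237; the number of arrays limits the precision. Of the probes, 33762 were named through their accession in RefSeq (GRCm38.p6) and 22843 were not. Probes well above background on at least 3 arrays were kept, with 1 row per named gene (the probe with the highest mean) or unnamed probe. KCS was compared with KC by limma 3.58.1 in R 4.3.3 (lmFit, eBayes), with Benjamini-Hochberg adjustment over 27104 rows and a threshold of 0.05. A gene not well above background on all arrays of a group is given as a lower bound, from the mean of the brighter group and, per array of the dim group, the higher of its own signal and the lowest signal well above background. Named were all members, up to 4 called genes with the smallest p-value per list other than the cell type markers, and the 5 nearest patterns. Ctsl and 1810009J06Rik, outside this rule, were named after their values were seen. Setdb1 and some of the cell type markers, with Rbpjl and Dcn among them, were also named outside this rule. The members and lists were chosen with earlier results of these data known. Alternatives were quantile, median and spike-in scaling, normexp (offset 50, on median signals, since the files hold no mean signal), the deposited table, other filters, trend and robust eBayes, slide and replicate blocks, the second slide alone and each array left out; raising dim signals to the background limit was chosen after seeing the data. On simulated data with this design and 27104 rows, 0, 4, 58 and 94% of rows changed by 0.5, 1, 2 and 4 on the log2 scale were recovered. Only 50 rows were changed at each size, whereas 60.3% of rows were called in the data. The simulated noise was independent between arrays and held no slide effect. These shares therefore do not give the power for the members. The name of the oncogenic allele and the results of 2 genes that this rule names are not reported here.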

Additional observations from a re-analysis of the deposited data

How the results depend on the processing

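The fall of the 7 measured members kept its direction in all 134 refits of single genes: 105 stayed past the threshold, 29 lost it and 0 reversed. Every KCS array lay below every KC array for each member, so refits that only leave out arrays could not reverse. The refits are also not independent. Some settings, such as no filter and averaged probes, left the members' fold changes as they were. The count of member genes called lower was 7 with median, spike-in and normexp processing, the deposited table, no filter, averaged probes, marked spots kept, slide as a block and dim signals raised; the count of member probes was 7 too where probes were refitted, which leaves out the deposited table, averaged probes and dim signals raised. For genes and for probes it was 3 with quantile normalization, 3 with trend and robust eBayes, 2 on the second slide alone, 3 to 7 with 1 array left out, and 1 with probes well above background on all 6 arrays, where Prss3 was the only member measured. Rows called were 16349, and 31880 without the filter on dim probes, which tests more probes. The cause of the other shifts was not tested. Same-numbered samples deviated together with correlations of 0.33, 0.04 and 0.14, so the numbers are not taken as pairs; the replicate block gave 16448 rows and 7 member genes called. The Spink1 value against the trypsinogens differed by -0.55 to -2.83 with 1 array left out, by -1.51 with normexp (exact p = 0.1) and by -2.01 with dim signals raised (exact p = 0.1). Signal over background limits KCS replicate 1, where 1 of the 7 members was well above it, against 6 and 7 on the other KCS arrays and 7 on each KC array.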
